A study of Mus musculus with 4 samples.

Results

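Mitotic neutrophil precursors are marrow cells that carry transcripts of cell division beside those of the secondary granules, the storage compartment that neutrophils fill at the myelocyte stage. A barcode, the tag that marks the transcripts of 1 droplet, was kept when it held at least 500 genes, at least 1000 unique molecular identifiers (UMIs, 1 per captured transcript) and at most 10% mitochondrial UMIs. It was counted as a mitotic precursor when Camp and Ngp together made up at least 1% of its UMIs and Retnlg less than 0.1%, when the S sum (Rrm2, Tyms, Mcm4, Hells and Ccne2) and the M sum (Ube2c, Cenpf, Ccnb1 and Nusap1) together held at least 5 UMIs, and when the M sum was above the S sum. The rule found 3423 such cells among 31209 kept barcodes, which came from 34670 barcodes in all. These were 892 cells from the B12+Butyrate library, 1036 from B12, 638 from Butyrate and 857 from Control.

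The 4 libraries were droplet single-cell RNA-seq of mouse bone marrow. All recipient mice had been lethally irradiated and given a mixture of CD45.1+ Tet2+/+ and CD45.2+ Tet2+/- marrow in equal parts, and the sequenced cells were live CD45.2+ cells, so every group, the controls included, carried the Tet2+/- genotype after transplantation. After 1 month of engraftment the mice were treated for 7 months. The B12+Butyrate mice received repeated intraperitoneal injections of 0.29 μg B12 and drinking water with 100 mM sodium butyrate. The B12 mice received the same injections with 100 mM NaCl in the water, the Butyrate mice PBS injections with butyrate water, and the Control mice PBS injections with NaCl water. Frozen marrow of 3 mice was pooled into 1 library per group, and cKit+ and cKit- cells were sorted apart and recombined in equal parts. The groups therefore have no replicate library, and no test between groups was possible. All intervals below are 95% intervals for counting error alone, exact for levels and shares and from a normal approximation on the log scale for ratios of shares. Those for levels treat each UMI as independent and leave out differences between cells, so they are too narrow where few cells hold most UMIs of a gene.

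A neutrophil precursor makes its granule proteins in waves as it matures. Proteases such as elastase and myeloperoxidase come first, at the promyelocyte stage, lactoferrin and the cathelicidin precursor Camp follow at the myelocyte stage, and gelatinase comes after division has stopped. In the cell cycle, S phase copies the DNA with the help of the Mcm helicase and the nucleotide enzymes, and mitosis follows under Cdk1 with B-type cyclins. The anaphase-promoting complex (APC/C), with its activator Cdc20 and the enzyme Ube2c, then marks cyclins for destruction and lets the chromosomes part.

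The members held both sets of transcripts that give them their name. Their median depth was 22388.5 UMIs in B12+Butyrate, 20138.5 in B12, 21252 in Butyrate and 20858 in Control. The median M sum was 27 UMIs in B12+Butyrate, 25 in B12, 27 in Butyrate and 25 in Control, against a minimum of 5 for the S and M sums together. The median share of Camp and Ngp was 9.63% in B12+Butyrate, 9.69% in B12, 9.46% in Butyrate and 9.18% in Control, so that few cells lay near the limit of 1%. Just inside that limit, at 1 to 1.5% of UMIs, lay 2 cells in B12+Butyrate, 3 in B12, 0 in Butyrate and 1 in Control, and just outside it, at 0.5 to 1%, lay 2, 0, 0 and 3 otherwise mitotic barcodes of the same libraries. The cut between S phase and mitosis was less sharp. An M sum exactly 1 UMI above the S sum was found in 31, 34, 21 and 38 members of the 4 libraries in the same order, and an M sum equal to the S sum in 26, 36, 32 and 33 cells outside the rule.

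Some members also carried transcripts of other marrow cells, and the Control library held more of them than the others. Levels are given in CPM, the UMIs of a gene among those of all members of a library, scaled to a common total. Counting UMIs of 11 B-lineage markers (such as Cd79a, Ighm and Igkc) and 13 monocyte markers (such as F13a1, Ms4a6c and Csf1r), 52 of 892 members (5.83%, interval 4.38 to 7.57%) held 10 or more in B12+Butyrate, 73 of 1036 (7.05%, 5.56 to 8.78%) in B12, 34 of 638 (5.33%, 3.72 to 7.37%) in Butyrate, and 114 of 857 (13.3%, 11.1 to 15.8%) in Control. A doublet caller had marked most of these cells as droplets with the RNA of more than 1 cell, 45 in B12+Butyrate, 69 in B12, 30 in Butyrate and 97 in Control. The summed level of the monocyte markers in all members was 131 CPM in B12+Butyrate, 212 in B12, 153 in Butyrate and 415 in Control, and 4.5, 9.0, 10.4 and 16.3 CPM without these cells. The summed B-lineage level was 513 CPM in B12+Butyrate, 160 in B12, 155 in Butyrate and 339 in Control, and 46.7, 46.1, 50.8 and 53.3 CPM without them, most of it Ighm. The cells were removed on these same markers, so the removal itself lowers both sums. Nearly all of these markers had at least 1 UMI in the members of each library. Among the 11 B-lineage markers only Igll1 had none, in B12+Butyrate and B12. Among the 13 monocyte markers C1qa had none in B12+Butyrate and Butyrate, and C1qb none in B12+Butyrate. Every marker of both lists was found in Control. The marker-bearing cells were kept in the main values, and the counts of genes between treatments are also given without them. Between 13 and 30 barcodes were shared by a pair of libraries, and no member barcode was shared.

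Mitotic precursors took a larger share of the kept barcodes in both libraries of B12-treated mice. The share was 11.7% (interval 10.998 to 12.5%) in B12+Butyrate, 12.9% (12.1 to 13.6%) in B12, 9.39% (8.71 to 10.1%) in Butyrate and 9.79% (9.18 to 10.4%) in Control. The share in B12 was 1.31 times that in Control (interval 1.21 to 1.43), and the share in Butyrate 0.959 times that in Control (0.870 to 1.06). The share in B12+Butyrate was 1.25 times that in Butyrate (1.13 to 1.37) and 0.910 times that in B12 (0.837 to 0.989). With each cell thinned to 5000 UMIs, which sets their depths equal, the values were 10.6% in B12+Butyrate, 12.6% in B12, 8.97% in Butyrate and 8.94% in Control, after 1156, 1427, 1281 and 1594 shallower barcodes had been left out.

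The order of the groups depended on what the cells were counted against. Among all Camp and Ngp cells low in Retnlg, mitotic cells made up 27.9% (26.4 to 29.5%) in B12+Butyrate, 29.8% (28.3 to 31.4%) in B12, 27.7% (25.9 to 29.6%) in Butyrate and 31.2% (29.5 to 33.0%) in Control, and the B12 share was 0.955 times the Control share (0.886 to 1.03). With cells thinned to 5000 UMIs the shares were 21.7% in B12+Butyrate, 24.9% in B12, 22.0% in Butyrate and 24.2% in Control, and the B12 share was 1.03 times the Control share (0.943 to 1.13). Among dividing precursors alone, S phase and mitosis together, mitotic cells made up 47.3% in B12+Butyrate, 45.4% in B12, 42.3% in Butyrate and 46.7% in Control. After thinning the last share was 54.4%, 52.8%, 52.0% and 54.1% in the same order, and the intervals of all 4 overlapped. S phase precursors of the same rule made up 13.1% of kept barcodes in B12+Butyrate, 15.5% in B12, 12.8% in Butyrate and 11.2% in Control. The sort recombined cKit+ and cKit- cells in fixed parts, so shares of all barcodes reflect that mixing as well as the marrow, and the 2 cannot be told apart.

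**Figure D1:**
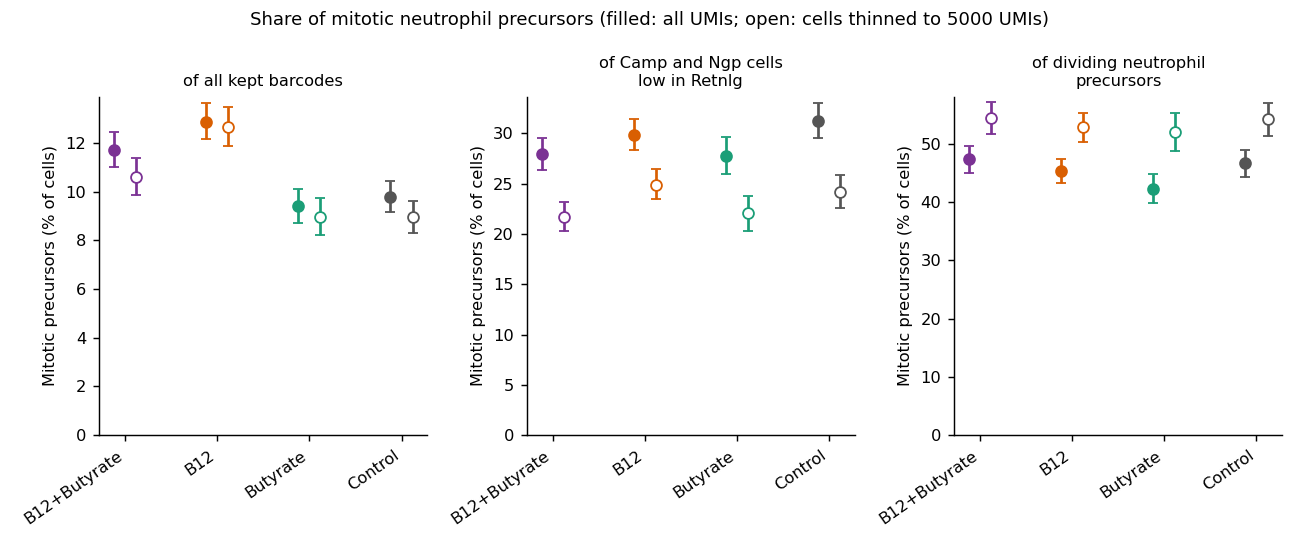
Share of mitotic neutrophil precursors (% of cells) in each library, against all kept barcodes, against Camp and Ngp cells low in Retnlg, and against dividing neutrophil precursors. Points are single libraries, bars are exact 95% binomial intervals, and open points are cells thinned to 5000 UMIs; the 2 libraries of B12-treated mice stand above the others in the first panel (11.7 and 12.9%, against 9.39 and 9.79%) and not in the other panels.

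The mitotic genes of the rule had nearly the same level in every library. Ube2c, the APC/C's ubiquitin-conjugating enzyme, was at 611 CPM in B12+Butyrate, 651 in B12, 631 in Butyrate and 626 in Control. Nusap1, which bundles spindle microtubules, was at 291, 312, 301 and 276 CPM in the same libraries. Cenpf, a large kinetochore protein, was at 294, 294, 286 and 272 CPM, and Ccnb1, the cyclin B1 that activates Cdk1, at 100, 93.5, 95.6 and 87.6 CPM. Nusap1, Cenpf and Ccnb1 were lowest in Control and Ube2c was lowest in B12+Butyrate. Since the rule selected on these genes, their levels describe the members and are no result about them.

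The S phase genes of the rule were still read in these cells. Rrm2, a subunit of ribonucleotide reductase, was at 172 CPM in B12+Butyrate, 186 in B12, 175 in Butyrate and 176 in Control. Tyms, thymidylate synthase, was at 64.0, 69.8, 58.0 and 63.7 CPM, and the helicase subunit Mcm4 at 24.7, 24.3, 24.9 and 32.5 CPM. Hells, a chromatin remodeller, was at 16.96, 18.3, 16.01 and 26.0 CPM, and Ccne2, the cyclin E2 of S phase entry, at 10.2, 11.9, 9.31 and 13.8 CPM. Mcm4, Hells and Ccne2 were highest in Control. Camp was at 57096, 57572, 57419 and 52018 CPM and Ngp at 35375, 35286, 34985 and 34700 CPM, while Retnlg, a gene of later neutrophils that the rule kept low, was at 49.3, 52.1, 47.4 and 78.7 CPM. Tet2, 1 copy of which is lost in these cells, was read at 53.8, 49.3, 55.4 and 59.5 CPM, a level that does not check the genotype because all 4 groups share it.

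Mitotic genes are known to share promoter elements that hold them silent until late in the cycle: the cell cycle genes homology region (CHR, TTTGAA), bound by the DREAM and MuvB complexes, and the CCAAT box (CCAAT), bound by NF-Y. Promoter windows of 300 bases, 250 before to 50 after the start of each gene, were taken from RefSeq (build GRCm38.p6) by gene symbol, and no coordinate was carried over to GRCm39, the build of the counts. Reading both strands, TTTGAA was found in 20.2% of 27025 genes and CCAAT in 41.1%, and both in 7.97%. Of 83 genes in the lists of mitotic kinases, spindle and kinetochore genes, 68 matched; TTTGAA was found in 57.4% of them, CCAAT in 73.5% and both in 48.5%. Of 33 matched genes of DNA replication, 9.09% held TTTGAA and 54.5% CCAAT. Of 22 matched secondary granule genes 36.4% held TTTGAA, 50.0% CCAAT and 18.2% both. The 120 bases before the start are shown for the 4 genes of the M sum, and for Cdc20, Cdk1 and Top2a, which stood far above S phase or non-dividing cells. Capitals mark TTTGAA or its reverse TTCAAA, and CCAAT or its reverse ATTGG; the 2 motifs share no letters in these windows.

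Ube2c (chr2:164769809-164769928, plus strand): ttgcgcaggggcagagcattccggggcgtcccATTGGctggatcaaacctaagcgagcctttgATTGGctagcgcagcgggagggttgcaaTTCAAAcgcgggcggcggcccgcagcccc
Cenpf (chr1:189688087-189688206, minus strand): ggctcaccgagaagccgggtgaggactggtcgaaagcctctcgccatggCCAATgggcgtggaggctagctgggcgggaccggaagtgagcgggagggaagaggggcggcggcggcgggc
Ccnb1 (chr13:100786487-100786606, minus strand): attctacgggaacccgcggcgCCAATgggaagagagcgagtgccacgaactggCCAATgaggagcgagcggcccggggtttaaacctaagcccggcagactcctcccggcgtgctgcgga
Nusap1 (chr2:119618178-119618297, plus strand): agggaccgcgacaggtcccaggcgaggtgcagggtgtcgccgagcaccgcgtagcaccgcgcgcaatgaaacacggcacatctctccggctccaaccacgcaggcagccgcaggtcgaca
Cdc20 (chr4:118437344-118437463, minus strand): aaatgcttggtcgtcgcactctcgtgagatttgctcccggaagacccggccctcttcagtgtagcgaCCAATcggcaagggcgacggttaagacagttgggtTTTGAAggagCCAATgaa
Cdk1 (chr10:69352913-69353032, minus strand): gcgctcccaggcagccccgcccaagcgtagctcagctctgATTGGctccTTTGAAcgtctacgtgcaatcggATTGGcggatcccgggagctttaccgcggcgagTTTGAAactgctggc
Top2a (chr11:99024190-99024309, minus strand): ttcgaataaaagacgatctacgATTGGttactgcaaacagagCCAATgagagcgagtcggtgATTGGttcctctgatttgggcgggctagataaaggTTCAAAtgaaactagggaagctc

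The windows differ among the genes that chose the cells. Ube2c holds 1 CHR, at position -29 from the start, and 2 CCAAT boxes, while Cenpf and Ccnb1 hold 1 and 2 CCAAT boxes and no CHR in these bases, and Nusap1 holds neither. Cdk1 holds 2 CHRs and 2 CCAAT boxes. The same bases of Ccnb2, cyclin B2, which are not printed, hold 3 CCAAT boxes and no CHR. For all these genes a CHR here means the exact letters TTTGAA or TTCAAA before the start. Other spellings were not searched, and bases after the start lie outside these windows, so a CHR may be missed. A match is a run of letters and does not show that a factor was bound in these cells.

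Set beside S phase precursors of the same rule, the mitotic cells had more of nearly every spindle and kinetochore gene and less of every replication gene. Ratios were taken within each library and are given as the mean log2 ratio ± SD over the 4 libraries, with 10 CPM added to both levels. The cells of both classes were chosen on the same UMIs, so the values describe the 2 classes and carry no test. A gene is counted as higher or lower when the mean log2 ratio was at least 0.5 in size and the gene reached 50 CPM in either class, which held for 14.8% of the 2934 genes measured, 5.83% higher and 8.96% lower. Of the spindle and kinesin list 30 of 31 measured genes were higher (median log2 ratio 1.11, against -0.02 for all genes), of the mitotic kinases and cyclins 11 of 12 (median 0.97), and of the kinetochore and centromere list 17 of 21 (median 0.78). Of the DNA replication list all 27 measured genes were lower (median -1.41). In the APC/C and checkpoint list 3 of 10 were higher, and in the list of exit genes 2 of 8 were higher and 1 lower. Of 10 measured G2/M transcription factors 0 were higher and 4 lower (median -0.40).

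The gene that stood highest over S phase was Cdc20, which activates the APC/C at the metaphase to anaphase transition. It averaged 158 CPM in mitotic precursors and 31.5 CPM in S phase precursors, a log2 ratio of 2.02 ± 0.10. Hmmr, a spindle assembly protein, averaged 178 CPM against 39.3 CPM (1.93 ± 0.08), and Arl6ip1, an endoplasmic reticulum shaping protein, 633 CPM against 158 CPM (1.93 ± 0.04). Aspm, which sits at spindle poles, averaged 84.8 CPM against 15.1 CPM (1.92 ± 0.04). All 4 genes were higher in the mitotic precursors in 4 of 4 libraries, which was a condition for being named in this ranking. Cenpa, the histone variant of centromeres, averaged 287 CPM against 77.7 CPM, and the tubulin Tubb4b 361 CPM against 103 CPM. Gas2l3, a midbody protein, and Prr11 completed the highest 8, with log2 ratios of 1.78 and 1.59.

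Lower in mitotic precursors were genes that license and copy DNA. Mcm6 averaged 27.1 CPM in mitotic and 154 CPM in S phase precursors (log2 ratio -2.15), Cdc6, which loads the helicase, 6.96 CPM against 64.3 CPM (-2.13), Pola1, the catalytic subunit of DNA polymerase alpha, 45.7 CPM against 210 CPM (-1.999), and Mcm2 16.3 CPM against 87.6 CPM (-1.90). Pcna, the sliding clamp of the replication fork, averaged 123.5 CPM against 462 CPM (-1.82). Replication-dependent histones went the other way: 9 of 24 measured genes were higher in mitotic precursors and 0 lower (median 0.37). Among them H3c3 averaged 513 CPM in mitotic and 306 CPM in S phase precursors and H4c4 442 CPM against 272 CPM, whereas H1f5 was close, at 445 CPM against 471 CPM. Most of these histone messages end in a stem-loop and not in a poly(A) tail, while the kit primes on poly(A), so their levels here cover only what was primed.

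The primary granule proteases were among the genes furthest below S phase. Elane, neutrophil elastase, averaged 472 CPM in mitotic and 2091 CPM in S phase precursors (log2 ratio -2.18 ± 0.31), Mpo, myeloperoxidase, 198 CPM against 808 CPM (-2.04), and Prtn3, proteinase 3, 415 CPM against 1430 CPM (-1.82 ± 0.26). Of 10 measured genes on the primary granule list 7 were lower, and 7 of 15 genes of the unfolded protein response, the chaperones that serve secretion, were lower as well. Secondary granule genes gave 1 of 21 higher, 1 lower and a median of 0.10, and 5 of 15 tertiary granule and maturation genes were higher (median 0.32). Ltf, lactoferrin, averaged 6432 CPM in mitotic and 5059 CPM in S phase precursors, and Lcn2, the iron-siderophore trap lipocalin 2, 11201 CPM against 10692 CPM. Cebpe, the transcription factor of the myelocyte stage, averaged 510 CPM against 388 CPM. Id2, an inhibitor of E-box factors, at 270 CPM against 156 CPM, and Cdkn2d, the p19 inhibitor of Cdk4 and Cdk6, at 284 CPM against 122 CPM, were higher in the mitotic cells.

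Non-dividing Camp and Ngp cells, with at most 1 UMI in the S sum and M sum together, lacked most of the division genes. These 3407 cells were shallower, with a median of 11193.5 to 12304.5 UMIs per library. Against them 37.8% of 2891 genes passed the same limit, 26.5% higher and 11.4% lower in the mitotic precursors, around a median of 0.10. All 31 measured spindle genes, all 20 kinetochore genes, all 12 mitotic kinases and cyclins and all 24 histones were higher. Top2a, the topoisomerase that untangles sister chromosomes, averaged 661 CPM in mitotic and 7.26 CPM in non-dividing cells, H3c3 513 CPM against 2.78 CPM, and Kif11, the kinesin that pushes spindle poles apart, 244 CPM against 2.39 CPM. Pclaf, a Pcna partner, averaged 454 CPM against 10.97 CPM.

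Genes of later maturation stood higher in the non-dividing cells. Mmp8, neutrophil collagenase, averaged 14.3 CPM in mitotic and 241 CPM in non-dividing cells (log2 ratio -3.37), and Mmp9, gelatinase, 78.4 CPM against 547 CPM (-2.65). Ifitm6 averaged 717 CPM against 2745 CPM, and S100a6 591 CPM against 2473 CPM. Of the tertiary granule and maturation list 11 of 17 genes were lower in mitotic cells, and of the secondary granule list 12 of 23. The primary granule list gave 6 of 10 genes higher and a median of 1.42, while its summed level was lower in mitotic cells, at 11646 CPM in B12+Butyrate, 11108 in B12, 11147 in Butyrate and 12543 in Control, against 18453, 17491, 17544 and 17544 CPM in non-dividing cells of the same libraries. The list's sum is mostly Lyz2, lysozyme, which averaged 8924 CPM in mitotic and 16444 CPM in non-dividing cells, whereas Elane averaged 472 CPM against 21.6 CPM and Prtn3 415 CPM against 27.5 CPM.

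A second set of mitotic cells, with Mpo, Elane, Prtn3 and Ctsg at 1% of UMIs or more and Camp and Ngp below 0.1%, allowed mitosis to be compared between granule stages. These mitotic primary granule cells were few, 30 in B12+Butyrate, 34 in B12, 13 in Butyrate and 38 in Control, and deeper, with medians of 32814 to 39418 UMIs. The median log2 ratio of all 3936 genes was -0.47, so changes are best read against that value; 63.7% of genes passed the limit, 14.8% higher and 48.9% lower in the neutrophil precursors. Of 13 mitotic kinases and cyclins 2 were higher and 2 lower, and of 31 spindle genes 10 were higher and 1 lower. Their medians were 0.24 and 0.40. These cells were chosen low in Camp and Ngp and high in 4 proteases, so a difference in granule genes is partly fixed by the rule. Ltf averaged 6432 CPM in the mitotic neutrophil precursors and 8.94 CPM in the mitotic primary granule cells, and Ly6g, the surface antigen of mouse neutrophils, 253 CPM against 1.23 CPM. Calr, the chaperone calreticulin, averaged 88.5 CPM against 1680 CPM, and Srgn, the granule proteoglycan serglycin, 209 CPM against 2738 CPM. In the unfolded protein response list 17 of 19 genes were lower (median -1.96).

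**Figure D2:**
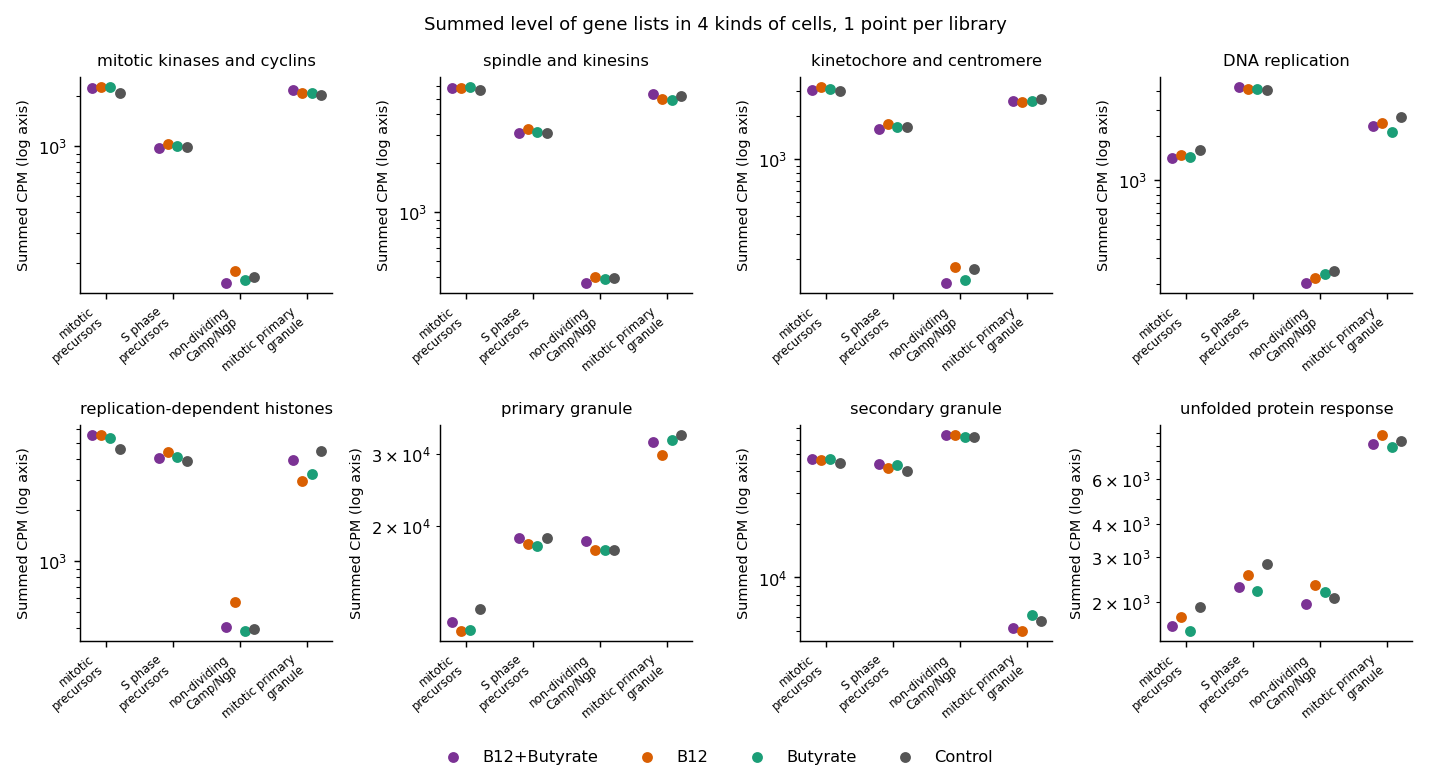
Summed level (CPM, log axis) of 8 gene lists in mitotic neutrophil precursors, S phase precursors, non-dividing Camp and Ngp cells and mitotic primary granule cells, with 1 point per library. Kinases, spindle and kinetochore genes are high in both mitotic classes and lowest in non-dividing cells, and the primary granule sum is lowest in the mitotic precursors (11108 to 12543 CPM).

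The members were not uniform, and the S and M sums ordered them along the cycle. The cells of all libraries were split into 3 groups of like size, low, middle and high, by the M sum's share of UMIs, at 0.0963% and 0.148%. From the low to the high group the summed level of DNA replication genes went down in every library, from 1790, 2017, 2001 and 2022 CPM in the low group to 774, 935, 862 and 882 CPM in the high group of B12+Butyrate, B12, Butyrate and Control. Replication-dependent histones were highest in the middle group, at 7175, 6672, 6713 and 6091 CPM, and lowest in the high group, at 4050, 4294, 3917 and 3122 CPM. Spindle genes were at 4708, 5006, 4858 and 4669 CPM in the low and 6495, 6337, 6503 and 6263 CPM in the high group. These splits use the genes of the rule, so they describe the members and carry no test.

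Genes outside the rule also differed between the high and the low group. Those named were picked by the size of that ratio, so they describe the split and do not check it. In the high and the low group Arl6ip1 averaged 951 and 345 CPM over the libraries (log2 ratio 1.44), Aspm 132 and 47.3 CPM (1.31), Gas2l3 93.5 and 36.6 CPM (1.15), Ckap2 74.6 and 28.8 CPM (1.13) and Aurka, the kinase of spindle poles, 125 and 52.4 CPM (1.12). Dnah8, which encodes an axonemal dynein chain, averaged 155 and 60.2 CPM (1.24). Dut, which keeps uracil out of DNA, averaged 38.8 and 160 CPM (-1.80). Among the lowest genes were also Cd74 (24.7 and 133 CPM), F13a1 (29.0 and 103 CPM), Zeb2 (41.8 and 169 CPM) and Igkc (11.1 and 84.1 CPM), which mark B cells and monocytes, so that the group with least M sum also held the most RNA of other lineages.

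**Figure D3:**
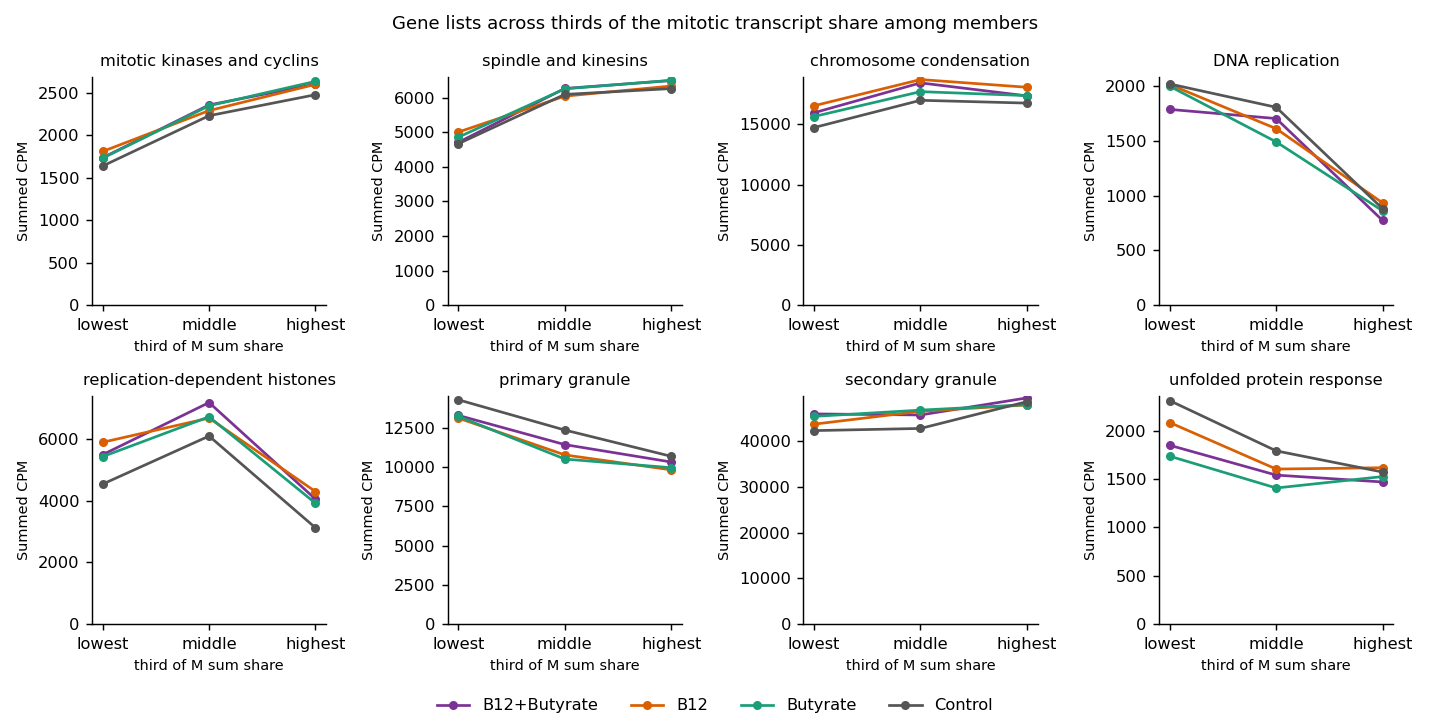
Summed level (CPM) of 8 gene lists in 3 groups of members of like size by the M sum's share of UMIs (lowest to highest), with 1 line per library. Replication genes decline to 774 to 935 CPM in the highest group, histones are highest in the middle group (6091 to 7175 CPM) and spindle genes are lowest in the lowest group (4669 to 5006 CPM).

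Members without any S sum UMI held few histone and protease transcripts and more of Mmp9. They were 12.9% of members in B12+Butyrate, 9.65% in B12, 13.3% in Butyrate and 11.9% in Control, and were shallower than the rest, with medians of 17847, 15942.5, 19422 and 16729.5 UMIs against 22898, 20453.5, 21576 and 21555. Of 2857 genes 626 (21.9%) passed the limit of 0.5, 127 higher (4.45%) and 499 lower (17.5%), and with cells thinned to 5000 UMIs, where more cells lose their S sum, 268 did. Histones were at 663 CPM in B12+Butyrate, 1171 in B12, 871 in Butyrate and 704 in Control in members with no S sum UMI, against 6125, 5946, 5909 and 5003 CPM in the others. Elane averaged 22.6 CPM against 518 CPM and Prtn3 49.7 CPM against 452 CPM. Cdc20 averaged 288 CPM against 145 CPM. Mmp9, which comes with the tertiary granules, averaged 234 CPM in members with no S sum UMI and 62.4 CPM in the others, S100a6 1223 CPM against 525 CPM, and Fpr2, a formyl peptide receptor, 167 CPM against 52.1 CPM.

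Members with the highest share of Camp and Ngp held less Elane and Mpo and less RNA of other lineages. In 3 groups of like size by that share, the high group, above 10.3% of UMIs, was set beside the low group, below 8.62%. Elane averaged 70.9 CPM in the high group, against 1122 CPM in the low group, and Mpo averaged 18.3 CPM against 499 CPM. The sum of the whole primary granule list, with Lyz2 in it, was 11630 CPM in B12+Butyrate, 10558 in B12, 11107 in Butyrate and 11545 in Control in the high group, against 12340, 12515, 11864 and 13740 CPM in the low group. Lcn2 averaged 13678 CPM against 8331 CPM and Ly6g 306 CPM against 196 CPM. The genes of other lineages were again in the low group: Cd74 averaged 4.09 CPM in the high and 179 CPM in the low group, and F13a1 2.68 CPM against 151 CPM. Members with 10 or more marker UMIs had a median Camp and Ngp share of 6.29% in B12+Butyrate, 5.76% in B12, 6.95% in Butyrate and 6.07% in Control, against 9.77%, 9.88%, 9.57% and 9.55% in the other members.

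The treatments were compared gene by gene as the log2 ratio of summed levels, B12 over Control, Butyrate over Control, B12+Butyrate over B12 and B12+Butyrate over Butyrate. Each of the 4 libraries enters 2 of these comparisons, so they are not independent of each other. A gene was counted when it reached 50 CPM in either library and its ratio was at least 0.5 in size. No measured gene of 4 lists of division genes passed that limit in any of the 4 comparisons. Few genes of any kind passed it, so lists of 12 to 31 measured genes would hold few or none in any case. Of the mitotic kinases and cyclins, the spindle, kinetochore and chromosome condensation lists, 0 measured genes were counted, against 0.968% of 2788 genes for B12 over Control, 2.00% of 2805 for Butyrate over Control, 0.331% of 2716 for B12+Butyrate over B12 and 0.257% of 2727 for B12+Butyrate over Butyrate. The median of the 12 mitotic kinases and cyclins was 0.11, 0.12, -0.02 and -0.04 in these comparisons, beside -0.02, -0.04, -0.01 and 0.01 for all genes. Cdk1 was at 238 CPM in B12+Butyrate, 240 in B12, 252 in Butyrate and 214 in Control, and Cks2, its small binding partner, at 677, 694, 683 and 621 CPM. Both were lowest in Control, by less than the limit.

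Replication-dependent histones were higher in the B12 and the Butyrate library than in Control. Of 26 measured histones 25 had a ratio above 0 for B12 over Control, with a median of 0.30. Of these 1 was counted as higher, against 0.143% of all genes. Of 24 histones measured for Butyrate over Control 21 were above 0, with a median of 0.26. There 2 were counted as higher, against 0.357% of all genes. Their summed level was 5566 CPM in B12+Butyrate, 5584 in B12, 5332 in Butyrate and 4615 in Control. Control was also lowest in S phase precursors, at 4090, 4418, 4095 and 3885 CPM in the same order. The same held for B-lineage barcodes, at 1405, 1573, 1258 and 907 CPM, so the lower level in Control was not particular to the members. Non-dividing cells gave 407, 573, 385 and 395 CPM, and mitotic primary granule cells 3971, 2973, 3284 and 4471 CPM. H4c8 was at 90.4 CPM (interval 86.4 to 94.5) in B12+Butyrate, 84.4 (80.6 to 88.3) in B12, 97.3 (92.3 to 103) in Butyrate and 57.7 (54.4 to 61.2) in Control. H4c3 was at 84.8, 78.5, 94.8 and 62.4 CPM, and H4c14 at 49.8, 66.8, 41.3 and 36.4 CPM. H2ac24, a histone outside the list, was at 72.4, 65.8, 70.3 and 42.3 CPM. H4c8 and H2ac24 were lower in Control than in each of the other libraries, beyond the counting intervals. Without marker-bearing members the medians were 0.25 and 0.20, and with called doublets removed 0.24 and 0.18. Over the other alternative settings both medians stayed above 0, apart from -0.06 for B12 over Control in the planned bins of Camp and Ngp share, of which the lowest held 3 to 6 cells.

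Between the B12+Butyrate library and the single treatments the histones were close as a list, with medians of 0.05 in both comparisons. H2bc4 was an exception, at 218 CPM (211 to 224) in B12+Butyrate, 165 (159 to 170) in B12, 135 (129 to 141) in Butyrate and 154 (148 to 159) in Control, which gave 0.65 over Butyrate and 0.38 over B12. H2ac6 was at 250, 203, 175 and 162 CPM in the same libraries.

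**Figure D4:**
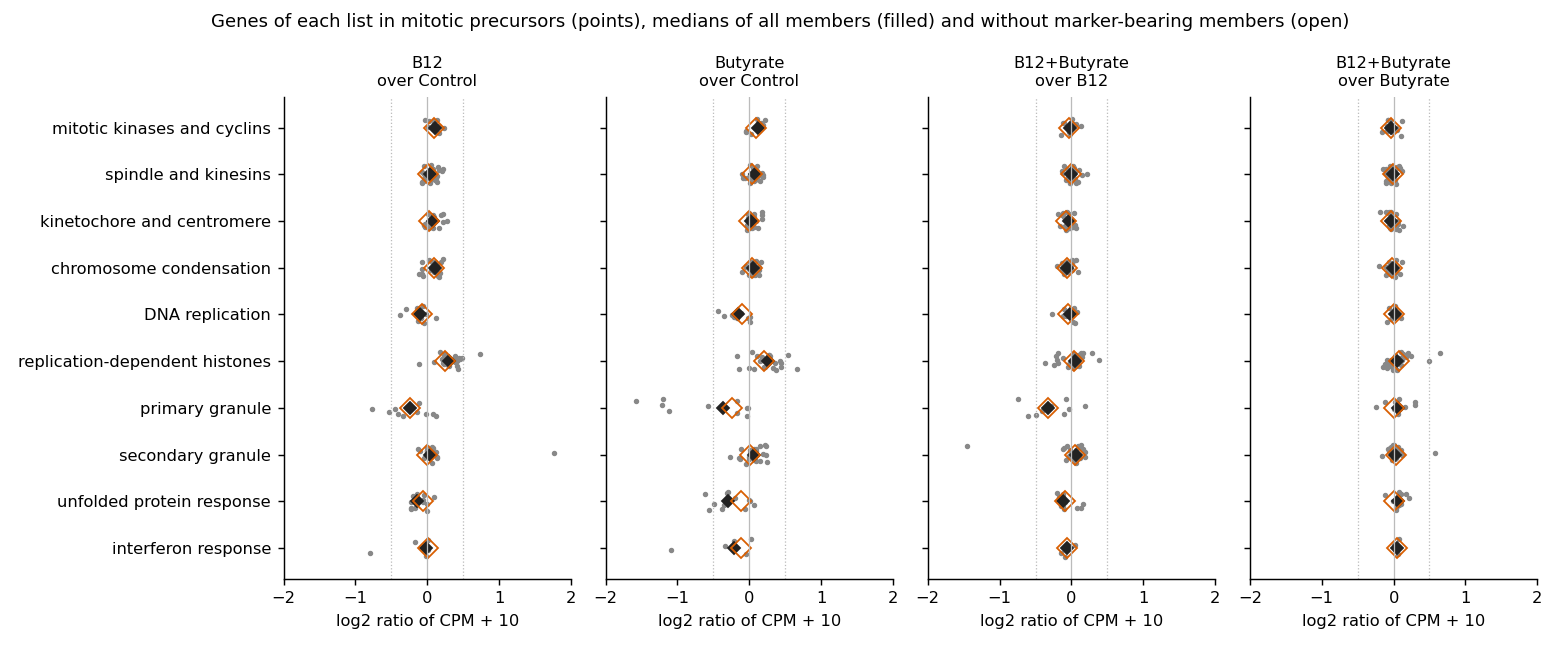
Log2 ratio of levels (10 CPM added) for the genes of 10 lists in each of the 4 treatment comparisons, with grey points for genes at 50 CPM or more, filled diamonds for the median of all members and open diamonds for the median without members holding 10 or more B-lineage and monocyte marker UMIs. Dotted lines mark 0.5 in either direction; division lists lie around 0, histones lie above it over Control (medians 0.30 and 0.26), and the point at 1.76 in the secondary granule row is Olfm4.

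Olfm4 had the largest positive ratio for B12 over Control. It encodes olfactomedin 4, a glycoprotein of the secondary granules that is known to be made by only a subset of neutrophils. Its level was 116 CPM (interval 112 to 121) in B12+Butyrate, 335 (327 to 342) in B12, 74.8 (70.4 to 79.5) in Butyrate and 91.9 (87.7 to 96.2) in Control. B12 stood alone, 1.76 above Control on the log2 scale, and B12+Butyrate lay 1.45 below B12. The B12+Butyrate library was 0.57 above Butyrate.

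The number of members with Olfm4 differed in the same way. At least 1 UMI was found in 76 of 892 members (8.52%, interval 6.77 to 10.5%) in B12+Butyrate, 206 of 1036 (19.9%, 17.5 to 22.4%) in B12, 34 of 638 (5.33%, 3.72 to 7.37%) in Butyrate and 63 of 857 (7.35%, 5.69 to 9.31%) in Control. With members thinned to 5000 UMIs the shares were 7.62%, 19.3%, 4.87% and 6.22%, after 0, 9, 1 and 5 shallower members had been left out. S phase precursors gave 8.65% in B12+Butyrate, 19.2% in B12, 7.69% in Butyrate and 7.76% in Control and B12 was the highest there too. B-lineage barcodes, which should lack the gene, gave 0.203%, 0.488%, 0.316% and 0.480% at median depths of 5509.5, 4981, 5260.5 and 5257 UMIs. Without marker-bearing members the log2 ratio of B12 over Control was 1.72. With 3 pooled mice in 1 library, a difference between mice and a difference between treatments cannot be told apart.

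No other secondary granule gene was counted in any comparison. Of all genes measured 0.257% to 2.00% were counted per comparison, so a list of 21 measured genes would hold few or none in any case. Ltf was at 6692 CPM in B12+Butyrate, 6196 in B12, 6759 in Butyrate and 6083 in Control, Lcn2 at 11197, 11819, 10887 and 10900 CPM, and Chil3, a chitinase-like protein, at 7371, 6446, 7381 and 6281 CPM. The list's medians over the 21 measured genes were 0.04, 0.07, 0.06 and 0.02 for B12 over Control, Butyrate over Control, B12+Butyrate over B12 and B12+Butyrate over Butyrate.

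The primary granule proteases were highest in Control. Elane was at 376 CPM (367 to 384) in B12+Butyrate, 532 (522 to 541) in B12, 305 (296 to 314) in Butyrate and 676 (664 to 688) in Control. Prtn3 was at 299 CPM in B12+Butyrate, 461 in B12, 268 in Butyrate and 633 in Control, Mpo at 142, 187, 136 and 327 CPM, and Ctsg at 60.4, 108, 47.1 and 160 CPM. All 4 genes were thus lower in both libraries with butyrate than in the library with the same injections and no butyrate. Butyrate over Control gave -1.12 for Elane, -1.21 for Prtn3, -1.20 for Mpo and -1.57 for Ctsg. Of 10 listed genes 5 were counted as lower and 0 as higher (median -0.37), against 1.64% and 0.357% of all genes measured. B12+Butyrate over B12 gave -0.49, -0.61, -0.37 and -0.74 for the same genes. There 2 of 10 listed genes were counted as lower, against 0.258% of all genes. Over Butyrate alone the B12+Butyrate library had a median of 0.06 and 0 of 10 genes counted, against 0.257% of all genes. In the unfolded protein response list 2 of 13 genes were counted as lower for Butyrate over Control (median -0.30), against 1.64% of all genes. Without marker-bearing members 0 of 11 were counted, against 0.591% of all genes, and the median was -0.12.

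B-lineage barcodes, which should lack these proteases, gave the same order of libraries for all 4. There Elane was at 345 CPM in B12+Butyrate, 608 in B12, 199 in Butyrate and 996 in Control, and Prtn3 at 232, 592, 200.1 and 878 CPM. The 4 proteases together held a median of 0.0122% of UMIs per B-lineage barcode in Control and 0% in the other libraries. The 95th percentiles were 0.0232%, 0.0510%, 0.0428% and 0.147% in the order above, so few barcodes carried much of these summed levels. Of the B-lineage barcodes 43, 23, 65 and 59 were called doublets. Non-dividing Camp and Ngp cells held Elane at 9.83 CPM in B12+Butyrate, 19.0 in B12, 10.6 in Butyrate and 47.0 in Control. The part of RNA from other cells in the members' protease values was not tested.

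Elane was seen in 28.0% of members in B12+Butyrate, 32.1% in B12, 27.4% in Butyrate and 49.5% in Control, against 6.09%, 10.0%, 8.44% and 24.2% of B-lineage barcodes in the same libraries. With cells thinned to 5000 UMIs the members' shares were 14.8%, 18.01%, 14.8% and 27.3%, and those of B-lineage barcodes 5.31%, 8.91%, 6.14% and 19.0%. Few members carried most of the gene: the tenth of members with most Elane held 96.8% of its UMIs in B12+Butyrate, 96.3% in B12, 95.6% in Butyrate and 91.9% in Control. A single member held 7.87%, 7.69%, 15.2% and 5.08% of them in the same libraries. Without marker-bearing members Butyrate over Control gave -0.93 for Elane, -0.93 for Prtn3, -0.69 for Mpo and -0.91 for Ctsg, and B12+Butyrate over B12 -0.57, -0.65, -0.55 and -0.79. For B12+Butyrate over Butyrate the Mpo ratio turned round, with 80.0 CPM in B12+Butyrate and 138 CPM in Butyrate without those members (-0.72, against 0.06 with all). In the planned bins of Camp and Ngp share, of which the lowest held 3 to 6 cells, the list's median over Control was 0.67 in both comparisons.

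**Figure D5:**
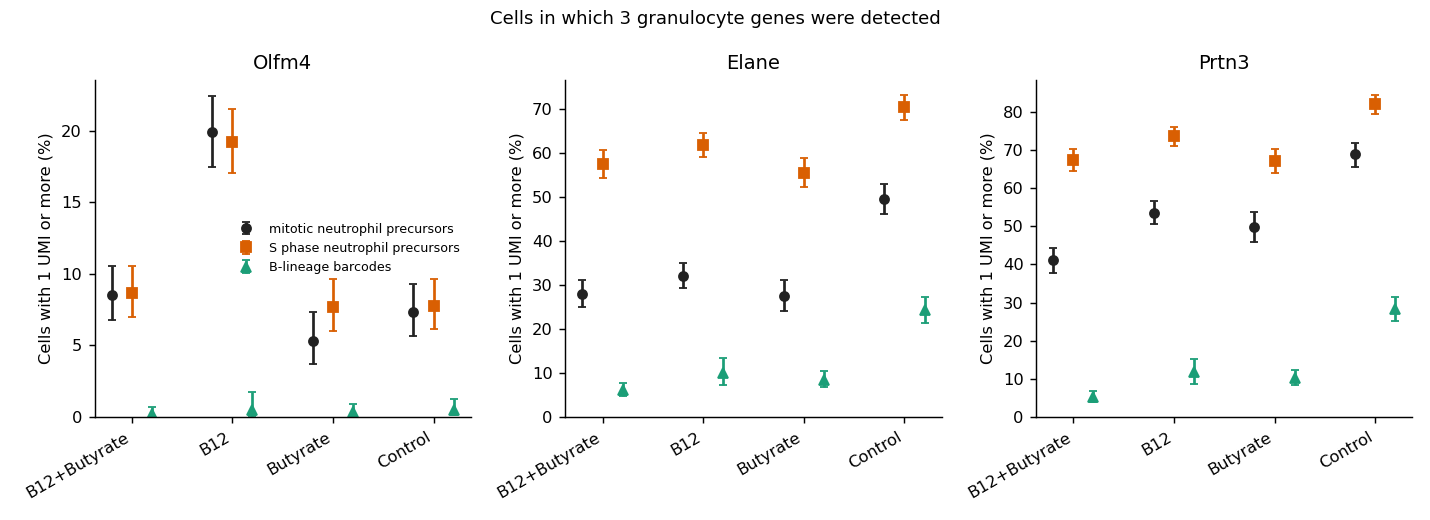
Share of cells with at least 1 UMI of Olfm4, Elane and Prtn3 (%) in mitotic precursors, S phase precursors and B-lineage barcodes of each library, with exact 95% binomial intervals. Olfm4 stands out in B12 (19.9% of members) with B-lineage barcodes below 0.5%, while Elane is highest in Control for members (49.5%) and for B-lineage barcodes (24.2%).

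Genes known from monocytes, dendritic cells and B cells were among those counted as lower than in Control. B12 over Control had 27 counted genes, 4 higher (0.143%) and 23 lower (0.825%), and Butyrate over Control 56, 10 higher (0.357%) and 46 lower (1.64%). F13a1, a monocyte transglutaminase, was at 34.8 CPM in B12+Butyrate, 54.8 in B12, 33.1 in Butyrate and 113 in Control. Irf8, the transcription factor of monocytes and dendritic cells, was at 18.5, 22.4, 6.77 and 52.7 CPM, and Zeb2 at 60.0, 75.9, 69.75 and 168 CPM. Without marker-bearing members F13a1 was at 2.16 CPM in B12, 2.46 in Butyrate and 5.22 in Control, and neither F13a1 nor Irf8 nor Zeb2 was counted. F13a1 is among the markers on which these members were removed, so the removal itself lowers it. The same holds for Ms4a6c, Igkc and Ighm, which were counted as lower in both comparisons with all members. Without these members 8 genes (0.297%) were counted for B12 over Control, 5 higher (0.186%) and 3 lower (0.111%). For Butyrate over Control there were 16 (0.591%), 11 higher (0.407%) and 5 lower (0.185%). For B12+Butyrate over B12 there were 7 (0.263%), 0 higher (0.00%) and 7 lower. For B12+Butyrate over Butyrate there were 9 (0.336%), 3 higher (0.112%) and 6 lower (0.224%). Of the genes counted with all members, 7 of 27 for B12 over Control and 14 of 56 for Butyrate over Control were also counted without them.

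Immunoglobulin values turned on single cells. Igkc was at 264 CPM in B12+Butyrate, 19.0 in B12, 14.4 in Butyrate and 104 in Control, and 1 cell held 5187 of its 5548 UMIs in B12+Butyrate and 1 cell 1488 of 2050 in Control. Ighm was at 156, 49.8, 54.1 and 104 CPM, with 2166 of 3273 UMIs in 1 cell of B12+Butyrate. In B12+Butyrate over B12 and over Butyrate these 2 genes had the largest positive ratios, among 2 genes counted as higher (0.0736%) and 7 as lower (0.258%) over B12 and 4 (0.147%) and 3 (0.110%) over Butyrate. The ratios were 3.24 and 3.49 for Igkc and 1.47 and 1.37 for Ighm, and without marker-bearing members they were 0.08 and -0.10 for Igkc and 0.01 and -0.04 for Ighm. Both genes are among the markers on which these members were removed, so the removal itself takes out cells rich in them and is no separate check.

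The genes counted as higher in Butyrate than in Control were of other kinds. Cmss1, a nuclear protein of ribosome assembly, was at 566 CPM (556 to 576) in B12+Butyrate, 431 (422 to 440) in B12, 759 (745 to 774) in Butyrate and 407 (398 to 416) in Control. Cdk8, the kinase of the Mediator complex, was at 132.5, 107, 190 and 104 CPM, and Lars2, the mitochondrial leucyl-tRNA synthetase, at 226, 184, 341 and 227 CPM. All 3 were highest in Butyrate, and Cmss1 and Cdk8 were second in B12+Butyrate. Levels of these 3 genes in other cells of the libraries are not given here, so a shift particular to the members is not shown. Egr1, an immediate early transcription factor, was at 71.2, 71.3, 87.9 and 51.4 CPM. Olr1, a scavenger receptor, was at 168, 227, 269 and 184.5 CPM; its log2 ratio of Butyrate over Control was 0.52, and 0.47 without marker-bearing members, under the limit. Hspa1b, an inducible heat shock protein, was counted for another comparison, as higher in B12 than in Control. It was at 61.0 CPM in B12+Butyrate, 118 in B12, 67.5 in Butyrate and 76.9 in Control, and B12 over Control gave 0.55, and 0.83 without marker-bearing members.

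Lists chosen for the study's theme held too few measured genes to show much. Of all genes measured, 0.257% to 2.00% were counted per treatment comparison, so a count of 0 in such short lists says little. Few of their genes reached 50 CPM, up to 4 DNA methylation enzymes, 2 histone deacetylases and 4 one-carbon and cobalamin genes, and 0 of them were counted in any treatment comparison, with medians between -0.10 and 0.10. Dnmt1, the maintenance methyltransferase, was at 93.2 CPM in B12+Butyrate, 92.3 in B12, 90.1 in Butyrate and 96.5 in Control. Hdac1, a histone deacetylase, was at 91.5, 89.6, 85.0 and 89.5 CPM, and Tcn2, the B12 carrier transcobalamin, at 69.2, 59.5, 78.6 and 64.6 CPM. In the NF-kB list 0 of 6 genes were counted. Nfkbia, the inhibitor that NF-kB itself switches on, was at 147, 154, 159 and 149 CPM, and Tnf at 108, 104, 84.3 and 80.8 CPM.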

How the data were processed

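Whole-number UMI counts per gene and barcode were deposited by the authors as 1 matrix per library, made with Cell Ranger on GRCm39 per the submitters' processing notes and with version 7.1.0 per the file headers. The sources used here do not say how free RNA or doublets were handled before deposit. Libraries held 8070 to 9688 barcodes and 95892397 to 123435815 UMIs. The members and the 29 gene lists were chosen with earlier results of these data known.

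UMIs of all cells of a class were summed per library and given as CPM with exact Poisson 95% intervals, and shares with exact Clopper-Pearson intervals. Intervals of ratios of shares came from a normal approximation on the log scale. Log2 ratios used 10 CPM added to each level. The 12 genes of the rule stayed out of list counts. Doublets were scored against simulated pairs of barcodes (30 principal components, 50 neighbours, an expected 0.8% per 1000 cells), which called 464 barcodes in B12+Butyrate, 518 in B12, 369 in Butyrate and 613 in Control. Called barcodes stayed in unless stated. Of the members 102, 122, 58 and 133 were called.

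Named genes were those of the rule, the 8 highest and 8 lowest per comparison at 50 CPM or more, and the members of each list with the highest levels or largest ratios. In comparisons with other classes of cells, the highest and lowest 8 were taken only from genes with the same direction in all 4 libraries. Genes named from splits of the members, and any others, were chosen after their values were seen. The computation was tested on simulated counts. Software was numpy 2.4.6, pandas 2.3.3, scikit-learn 1.9.0 and scipy 1.17.1 under Python 3.11.15.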

Additional observations from a re-analysis of the deposited data

Results flagged for a closer look

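3 genes stood out because a treatment had opposite directions without and with the other treatment; with 1 library per group the difference was not tested. Igkc had a log2 ratio of 3.24 for B12+Butyrate over B12 and -2.22 for Butyrate over Control, and of 3.49 for B12+Butyrate over Butyrate and -1.97 for B12 over Control. Ighm had 1.47 and -0.83 for butyrate with and without B12, and 1.37 and -0.93 for B12 with and without butyrate. Irf8 had 0.77 for B12+Butyrate over Butyrate and -0.95 for B12 over Control. In both the B12+Butyrate and the Butyrate library Irf8 lay below the level needed for a gene to be counted. Its ratio of B12+Butyrate over Butyrate was therefore not counted with all members either. Without members holding 10 or more marker UMIs of B cells and monocytes, none of these 3 genes was counted in any of the 4 comparisons. Igkc and Ighm are among those markers, so for them the removal is no separate check.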

How the results depend on the processing

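No paired analysis was possible because each group is 1 library. With 1 pooled library per treatment, the counting intervals leave out differences between mice and between library preparations. The intervals of levels also leave out differences between cells. Depth limits genes under 50 CPM and the Butyrate library, with 638 members, most. Of 160 alternative values for shares and counts of genes, 129 stayed close to the reported value. The count for B12 over Control (27) was 17 with an M sum at least 2 times the S sum, 6 without called doublets, 92 with genes from 10 CPM, 14 with 50 CPM added, 51 with totals without the 20 most abundant genes, 377 and 11 when libraries were given the same makeup in planned bins and in 3 groups of like size by Camp and Ngp share, and 8 without marker-bearing members. The count for Butyrate over Control (56) was 14 without called doublets, 153 from 10 CPM, 26 with 50 CPM added, 702 and 26 with the same makeup in the bins and the 3 groups, and 16 without marker-bearing members. For B12+Butyrate over B12 (9) it was 19 from 10 CPM, 14 without the 20 most abundant genes and 310 in the planned bins, and for B12+Butyrate over Butyrate (7) 12 and 662 from 10 CPM and in the planned bins, whose lowest bin held 3 to 6 cells. Against S phase cells (434) the count was 861 from 10 CPM and 248 with 50 CPM added, against non-dividing cells (1094) 2227, 720 and, without the 20 most abundant genes, 1650, and against mitotic primary granule cells (2507) 5179 from 10 CPM. Between members with no and with S sum UMIs (626) it was 268 after thinning, 322 with 50 CPM added, 1334 from 10 CPM and 957 without the 20 most abundant genes. Against Camp and Ngp cells low in Retnlg, the log2 ratio of shares was -0.066 for B12 over Control (0.39 of kept barcodes) and 0.010 for B12+Butyrate over Butyrate (0.32). Single genes that turned round were Ighm over Butyrate (-0.018 without called doublets, -0.040 without marker-bearing members), Igkc over Butyrate (-0.10 without those members) and for B12 over Control (0.12 after thinning), and, in the planned bins, Ctsg for Butyrate over Control (0.86) and Hspa1b and Hspa1a for B12+Butyrate over B12 (0.75 and 0.91). The cause was not tested.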
